A study of Mus musculus with 8 samples.

Results

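The 10 genes described here encode AP-1 subunits and immediate early transcription factors. They are the FOS family members Fos, Fosb and Fosl2, the JUN family members Jun, Junb and Jund, the bZIP factor Atf3, and the zinc finger factors Egr1, Egr2 and Egr3. They were chosen by gene symbol, and each of the 10 matched 1 locus among the 23735 loci of the expression table. RNA was sequenced from 8 libraries of peritoneal macrophages from C57BL/6J mice aged 8 weeks. The 4 groups of 2 libraries were MED1fl/fl macrophages (WT in the labels) without treatment, the same with lipopolysaccharide (LPS) at 50 ng/mL for 6 h, MED1ΔMac macrophages (MED1-/- in the labels, KO here) without treatment, and KO with LPS. The 2 libraries of a group are marked A and B, the labels explain neither the letters nor whether a library had its own mouse, and p-values therefore measure the spread between these libraries, which may be technical. No source used here names the Cre driver behind the macrophage deletion.

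AP-1 is a dimer of bZIP proteins that binds DNA through a basic region and pairs through a leucine zipper. JUN proteins can pair with each other or with FOS proteins, whereas FOS proteins need a partner such as a JUN protein. Fos, Jun, Egr1 and their relatives are classical immediate early genes: kinases activated by TLR4, the receptor for LPS, switch them on without new protein synthesis, and the first wave of their transcripts is short-lived. ATF3 is a stress-induced bZIP factor known as a brake on TLR4 cytokine genes, and EGR2 and EGR3 are zinc finger relatives of EGR1. MED1 is a subunit of Mediator, the complex that connects transcription factors with RNA polymerase II.

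Expression is in RPKM, which divides the reads of a locus by transcript length and by library size, so levels can be compared between genes. Depth, estimated from the values, was 6.8 to 14.1 M reads per library. Tests covered the 11272 loci that reached 1 RPKM in 2 or more libraries. Of the 10 genes, 9 passed this filter and 1, Fosb, did not. Each of 11 macrophage markers found in the table passed it as well, among them Csf1r at 249 to 948 RPKM and Emr1 at 277 to 709 RPKM. Their summed level was 11680 to 35750 RPKM in untreated and 8373 to 21290 in LPS libraries, and 18700 to 35750 in WT and 8373 to 18280 in KO libraries, with no overlap between the genotypes. Most of each sum was Lyz2 alone, so the sums mainly describe this gene. Pooled over treatments, Lyz2 was at 13230.5 to 32317 RPKM in WT and 4547 to 15001 in KO libraries, ranges that overlap. Within each treatment the genotypes did not overlap. Untreated libraries held 28588 and 32317 RPKM in WT and 8502.5 and 15001 in KO. LPS libraries held 17329 and 13230.5 in WT and 5111 and 4547 in KO. Between KO and WT 0 of the 11 markers passed (limma). With LPS averaged over genotypes, Cd14 rose and 5 of the 11 fell, namely Cd68, Fcgr1, Gata6, Lyz2 and Mertk (limma), where 8.46% of all loci rose and 21.8% fell. The part of these marker levels in the changes below was not tested. Med1 itself was at 17.6 to 24.8 RPKM and KO libraries differed from WT by -0.12 log2 units over both treatments (SE 0.15, limma adjusted p = 0.999), so the transcript level of the whole locus does not check the KO label. KO below means libraries labelled as such.

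With all libraries and the main settings, the members called with LPS at 6 h were Fosl2 and Junb. Fos had the lowest fitted change in both genotypes. The 250 bases before the RefSeq start of these 3 genes are shown to let their start regions be compared. They come from the RefSeq promoter table (GRCm38.p6), each matched 1 place on its chromosome in mm9, the build of the expression table, and the mm9 positions are given. Capitals mark matches to the motifs searched.
Fosl2 (chr5:32438595-32438844, plus strand): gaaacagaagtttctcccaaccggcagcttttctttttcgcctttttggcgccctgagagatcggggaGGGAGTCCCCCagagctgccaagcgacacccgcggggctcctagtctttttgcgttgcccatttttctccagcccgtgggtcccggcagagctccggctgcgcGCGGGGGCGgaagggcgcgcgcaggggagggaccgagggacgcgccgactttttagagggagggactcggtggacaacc
Junb (chr8:87502648-87502897, minus strand): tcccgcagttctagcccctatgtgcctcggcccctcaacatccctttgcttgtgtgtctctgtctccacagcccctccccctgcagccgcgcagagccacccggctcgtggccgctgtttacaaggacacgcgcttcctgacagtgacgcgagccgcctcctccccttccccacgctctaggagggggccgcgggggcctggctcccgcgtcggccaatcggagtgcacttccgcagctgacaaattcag
Fos (chr12:86814590-86814839, plus strand): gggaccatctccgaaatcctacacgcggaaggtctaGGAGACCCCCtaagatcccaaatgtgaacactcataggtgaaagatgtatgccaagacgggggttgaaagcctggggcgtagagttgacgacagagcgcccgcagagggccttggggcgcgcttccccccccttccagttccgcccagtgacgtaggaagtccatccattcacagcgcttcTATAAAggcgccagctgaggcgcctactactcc
The search covered TGANTCA (the AP-1 site), TGACGTCA (the cAMP response element), GCGNGGGCG (the EGR site), TTCNNNGAA (a STAT site), the CArG box bound by SRF and the NF-kB site, each on both strands, and TATAAA on the given strand. Fosl2 held 1 EGR site at positions -79 to -71, counted back from the start, and 2 overlapping NF-kB site matches spanning positions -182 to -172. Fos held a TATA box at -33 to -28 and an NF-kB site match at -214 to -205. In the Junb window no motif matched, which says only that these letters are not there. The same holds for the motifs not listed for Fosl2 and Fos. The search took only the set letters, and only within 250 bases of the start. Of all 32851 promoter windows of the same length, 6.75% held the AP-1 site, 1.55% the cAMP response element, 4.7% the EGR site, 7.02% the STAT site, 1.47% the CArG box, 3.9% the NF-kB site and 7.59% the TATA box. A match describes the letters and is no evidence of binding.

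Levels differed widely between the 10 genes in untreated WT macrophages. Atf3 was at 146 ± 42.7 RPKM and Junb at 105 ± 11.8 (SD, n = 2 here and below), a gap smaller than the SD of Atf3. Egr2 at 54.5 ± 2.53 and Jun at 54.3 ± 25.5 lay next and level with each other. Jund at 35.6 ± 0.68 was above Fosl2 at 23.7 ± 0.50, with no overlap between the libraries. Fos followed at 14.4 ± 12.2, a spread that reached across the level of Fosl2. Egr1 stood at 3.59 ± 0.97 and Egr3 at 1.73 ± 0.15. Fosb, a FOS protein with a strong activation domain, was close to absent: its values ran from 0 to 0.149 RPKM over the 8 libraries, in whole steps that stood for an estimated 4, 2, 1, 6, 1, 0, 3 and 3 reads (WT A, WT LPS A, KO A, KO LPS A, and the B libraries in the same order). The library at 0, WT LPS B, allows up to 0.11 RPKM for 3 reads, counting error only. No change of Fosb was detectable at this depth.

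**Figure D1:**
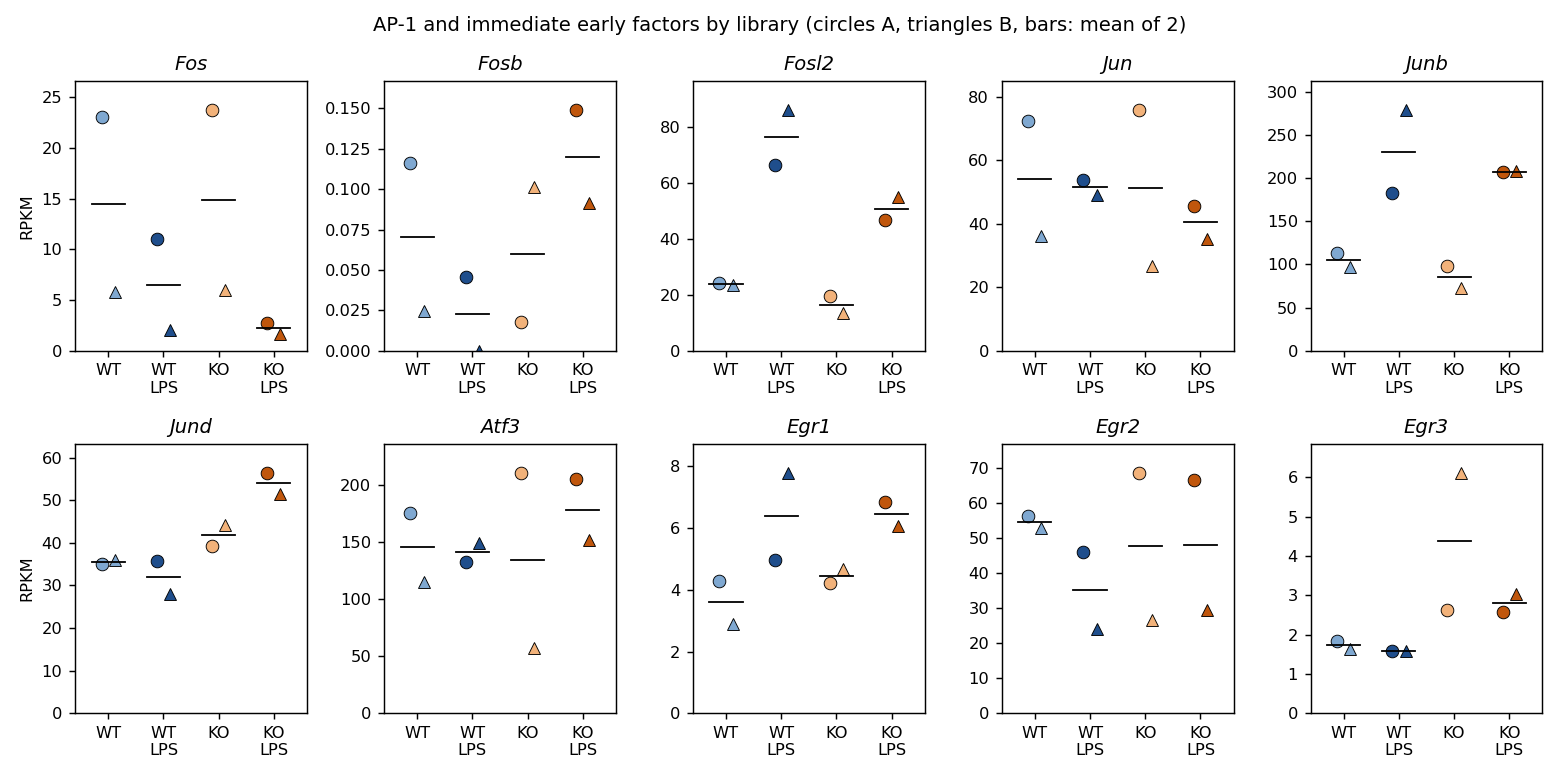
RPKM (vertical axis, linear, from 0, with its own scale in each panel) of the 10 genes in each library, by group on the horizontal axis; circles are A libraries, triangles B libraries and bars the mean of 2. Fosl2 and Junb were higher in all 4 LPS libraries than in all 4 untreated ones, while Fos, Jun and Egr2 were lower in B than in A in each of the 4 groups.

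Fosl2 encodes the FOS protein FRA-2 (locus XLOC_015487, mm9 chromosome 5, 32438845 to 32460204, plus strand, 4 exons). With the main settings it was the member called higher with LPS in both genotypes. In WT it was at 24.1 and 23.4 RPKM untreated (libraries A and B) and at 66.5 and 86.2 with LPS. In KO it was at 19.4 and 13.3 untreated and at 46.6 and 55.1 with LPS. Every LPS library was above every untreated library, and the rise was 3.22-fold in WT and 3.10-fold in KO by the ratio of means. On the log2(RPKM + 1) scale the change was 1.63 in WT (SE 0.24, limma adjusted p = 0.0175) and 1.59 in KO (SE 0.24, limma adjusted p = 0.0165). With 2 libraries a group, the WT call was lost on leaving out untreated WT library A (adjusted p = 0.107) or B (0.0821) or LPS-treated WT library B (0.103). The KO call was lost on leaving out untreated KO library B (adjusted p = 0.0659) or LPS-treated KO library A (0.071) or B (0.148). In the change averaged over the genotypes, 4 libraries against 4, it was 1.61 (SE 0.17, limma adjusted p = 0.00192) and passed under each of 16 alternatives. In bulk RNA a change in the share of cells that express a gene and a change in transcript per cell cannot be told apart.

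Fos (locus XLOC_004421, mm9 chromosome 12, 86814840 to 86818223, plus strand, 4 exons), the founding FOS gene, had lower values with LPS. In WT it was at 23.0 and 5.83 RPKM untreated and at 11.04 and 2.02 with LPS. In KO it was at 23.8 and 5.95 untreated and at 2.72 and 1.67 with LPS. Within each letter the LPS library was below its untreated counterpart in both genotypes, but the A and B libraries of a group differed so much that WT values overlapped. The log2 change was -1.09 in WT (SE 0.88, limma adjusted p = 0.433) and -2.06 in KO (SE 0.88, limma adjusted p = 0.171), and neither passed. With the letter as a replicate block the KO change passed (limma adjusted p = 0.0172) and the WT change did not (0.0936). Averaged over genotypes the change was -1.57 (SE 0.62, limma adjusted p = 0.0918; 0.00551 with the replicate block, and 0.041 without WT LPS A).

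The make-up of FOS family transcripts is described next. Fosl1, which encodes FRA-1 and belongs to the list of other bZIP factors, was added to complete the family: WT libraries held 1.59 and 1.44 RPKM untreated and 3.43 and 6.56 after LPS, and KO libraries 1.91 and 0.0805, then 8.80 and 8.81. It rose in KO (log2 2.47, SE 0.47, limma adjusted p = 0.029), while WT gave 1.20 (limma adjusted p = 0.142), and the difference between the genotypes was 1.26 (limma adjusted p = 1). Fos made up 19.0% to 52.7% of the summed RPKM of the 4 FOS genes in untreated libraries and 2.13% to 13.6% in LPS libraries. The share of Fosl2 was 43.1% to 76.2% untreated and 79.98% to 90.95% with LPS. These shares are a description and were not tested.

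**Figure D2:**
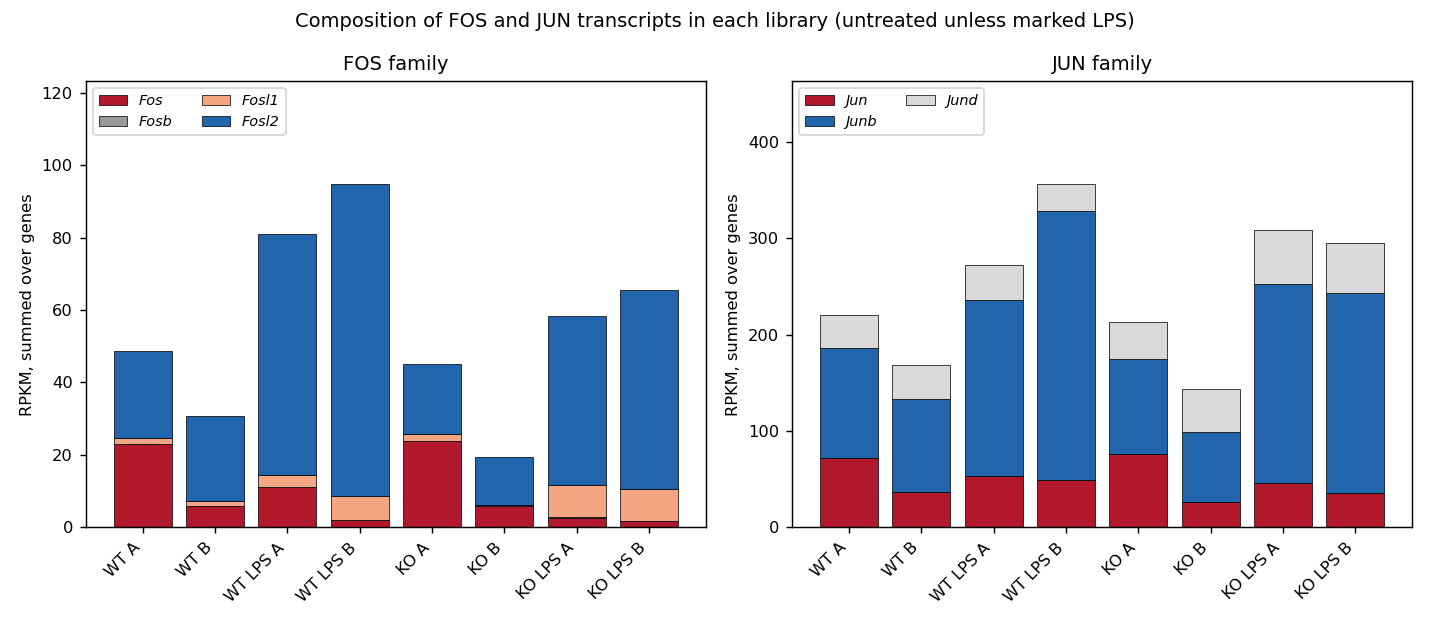
RPKM summed over the genes of the FOS family (left) and JUN family (right) in each of the 8 libraries (horizontal axis), with 1 colour per gene; both vertical axes are linear and start at 0. The FOS sum was 19.5 to 48.8 RPKM in untreated and 58.3 to 94.8 in LPS libraries, and the JUN sum 143 to 221 and 272 to 356.

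Junb (locus XLOC_021052, mm9 chromosome 8, 87500811 to 87502617, minus strand, 1 exon) encodes a JUN protein with weaker activation than c-Jun in many settings. With the main settings it was the other member called higher with LPS. It was at 113 and 96.7 RPKM in WT and at 182 and 279 with LPS. In KO it was at 98.5 and 72.6 untreated and at 207 and 208 with LPS. All LPS libraries were above all untreated ones. The log2 change was 1.10 in WT (SE 0.27, limma adjusted p = 0.0542; 0.0353 with the replicate block and 0.0237 without WT LPS A) and 1.29 in KO (SE 0.27, limma adjusted p = 0.0378). The KO call was lost without a filter on low values (adjusted p = 0.0663), with the KO groups fitted alone (0.0509), and on leaving out either untreated KO library (A 0.0518, B 0.132), either LPS-treated KO library (A 0.126, B 0.234) or either untreated WT library (A 0.0644, B 0.065). Averaged over genotypes the change was 1.19 (SE 0.19, limma adjusted p = 0.00649) and passed under each of 16 alternatives. Junb made up 46.1% to 57.2% of summed JUN family RPKM in untreated and 67.0% to 78.4% in LPS libraries.

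Jun, which encodes c-Jun (locus XLOC_014927, mm9 chromosome 4, 94715725 to 94718913, minus strand, 1 exon), gave no detectable LPS change. Untreated WT libraries held 72.3 and 36.2 RPKM, and 53.8 and 49.1 after LPS. The KO libraries held 75.9 and 26.6 RPKM, and 45.6 and 35.2 after LPS. In A the LPS libraries were lower than the untreated ones and in B higher, in both genotypes, with log2 differences of -0.42 and 0.43 in WT and -0.72 and 0.39 in KO. The fitted changes were 0.00 in WT (95% interval -1.17 to 1.18, limma adjusted p = 0.996) and -0.16 in KO (-1.34 to 1.01, limma adjusted p = 0.842), intervals wide enough to hold a doubling either way. A transcript on the other strand, BC042782, overlaps Jun. No source used here gives strandedness, so reads of the pair cannot be told apart.

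Jund, the JUN family member that many resting cells express steadily (locus XLOC_020388, mm9 chromosome 8, 73221638 to 73224515, plus strand, 1 exon), varied least. WT macrophages had 35.1 and 36.1 RPKM before and 35.8 and 28.0 after LPS. KO macrophages had 39.2 and 44.3 before and 56.5 and 51.4 after. The log2 change with LPS was -0.16 in WT (SE 0.19, limma adjusted p = 0.602) and 0.36 in KO (SE 0.19, limma adjusted p = 0.252). Both values depend on scaling: all loci together had median changes of -0.25 and -0.28, median-ratio scaling moved these medians by 0.25 and 0.27, and with it Jund passed in KO (0.67, limma adjusted p = 0.0414) and changed sign in WT. Gm11175 overlaps Jund on the opposite strand.

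Atf3 (locus XLOC_001286, mm9 chromosome 1, 192994175 to 193007219, minus strand, 4 exons) was abundant in every library. Levels of 176 and 115 RPKM in resting WT libraries compare with 133 and 150 after LPS. KO libraries gave 211 and 57.1 at rest and 205 and 152 after LPS. KO untreated B was the lowest of the 8. The log2 change with LPS was -0.02 in WT (SE 0.55, limma adjusted p = 0.989) and 0.68 in KO (SE 0.55, limma adjusted p = 0.428). Without KO untreated A the change averaged over genotypes was 0.80 and passed (limma adjusted p = 0.0394), against 0.33 with all libraries (limma adjusted p = 0.535).

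Egr1, the best known immediate early zinc finger factor (locus XLOC_009587), was low. The WT libraries gave 4.27 and 2.91 RPKM at rest and 4.96 and 7.79 after LPS. The KO libraries gave 4.21 and 4.68, and 6.84 and 6.05 after LPS. All 4 LPS libraries were above all 4 untreated ones, by a small margin. The log2 change was 0.67 in WT (SE 0.26, limma adjusted p = 0.145) and 0.45 in KO (SE 0.26, limma adjusted p = 0.284). Averaged over genotypes it was 0.56 (SE 0.19, limma adjusted p = 0.0573), and it passed with median-ratio scaling (0.0354), quantile normalization (0.031) and without WT LPS A (0.0213). Gm17507 overlaps Egr1 on the opposite strand.

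Egr2 (locus XLOC_001506, mm9 chromosome 10, 66998223 to 67004936, plus strand, 2 exons), also known as KROX20, carried most of the EGR transcript. At rest the WT libraries gave 56.3 and 52.8 RPKM, and after LPS 46.1 and 24.0. KO gave 68.6 and 26.7 at rest, and 66.5 and 29.4 after LPS. Its share of the summed RPKM of the 3 EGR genes was 71.2% to 92.1% in untreated and 71.9% to 87.6% in LPS libraries. The log2 change with LPS was -0.69 in WT (SE 0.54, limma adjusted p = 0.418) and 0.05 in KO (SE 0.54, limma adjusted p = 0.962). Egr3 (locus XLOC_006199, mm9 chromosome 14, 70477252 to 70479964, plus strand, 2 exons) held 1.84 and 1.62 RPKM in resting WT libraries, and 1.59 and 1.58 after LPS. Resting KO libraries held 2.62 and 6.12, and LPS-treated ones 2.59 and 3.02. Its LPS change was -0.08 in WT (limma adjusted p = 0.894) and -0.42 in KO (limma adjusted p = 0.409), from an estimated 15.3 to 64.5 reads per library.

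Read together, 1 of the 9 tested members passed upward in WT, where 3.17% of all loci did (6.31% in either direction), and 2 passed upward in KO, where 3.31% did (6.62% in either direction). Without the replicate block none passed downward, where 3.14% of all loci did in WT and 3.31% in KO. With it Junb also passed upward in WT (limma adjusted p = 0.0353) and Fos downward in KO (limma adjusted p = 0.0172). Over all loci 1818 and 1611 then passed in either direction. At an unadjusted p under 0.05 (limma) there were 3 of 9 members in WT, Egr1, Fosl2 and Junb, with 3 higher and 0 lower. In KO there were also 3 of 9, with Fosl2 and Junb higher and 1, Fos, lower. Of all loci 29.3% and 29.2% were under it in either direction. Averaged over genotypes 2 of 9 passed upward and 0 downward, where 8.46% and 21.8% of all loci did (30.3% in either direction). With the replicate block Fos passed downward in this average as well (limma adjusted p = 0.00551). Fosl2, Junb and Egr1 were the 3 members without overlap between all LPS and all untreated libraries, where 9.2% of all loci lay higher in this way and 30% lower. Within WT, Fosl2, Junb and Egr1 lay higher without overlap (18.2% of all loci) and Egr2 and Egr3 lower (45.9%). Within KO, Fosl2, Junb, Jund and Egr1 lay higher (15.1% of all loci) and Fos lower (48%). The median log2 change of the 9 was -0.02 in WT and 0.36 in KO, beside -0.25 and -0.28 over all loci. The difference between the LPS responses of KO and WT passed for 0 of 9 members (limma), where 0.0355% of all loci passed (0.0177% in each direction). At an unadjusted p under 0.05 there were 0 members, against 1.63% of all loci. For Fosl2 the difference was -0.04 (95% interval -0.83 to 0.75) and for Junb 0.18 (-0.70 to 1.07).

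**Figure D3:**
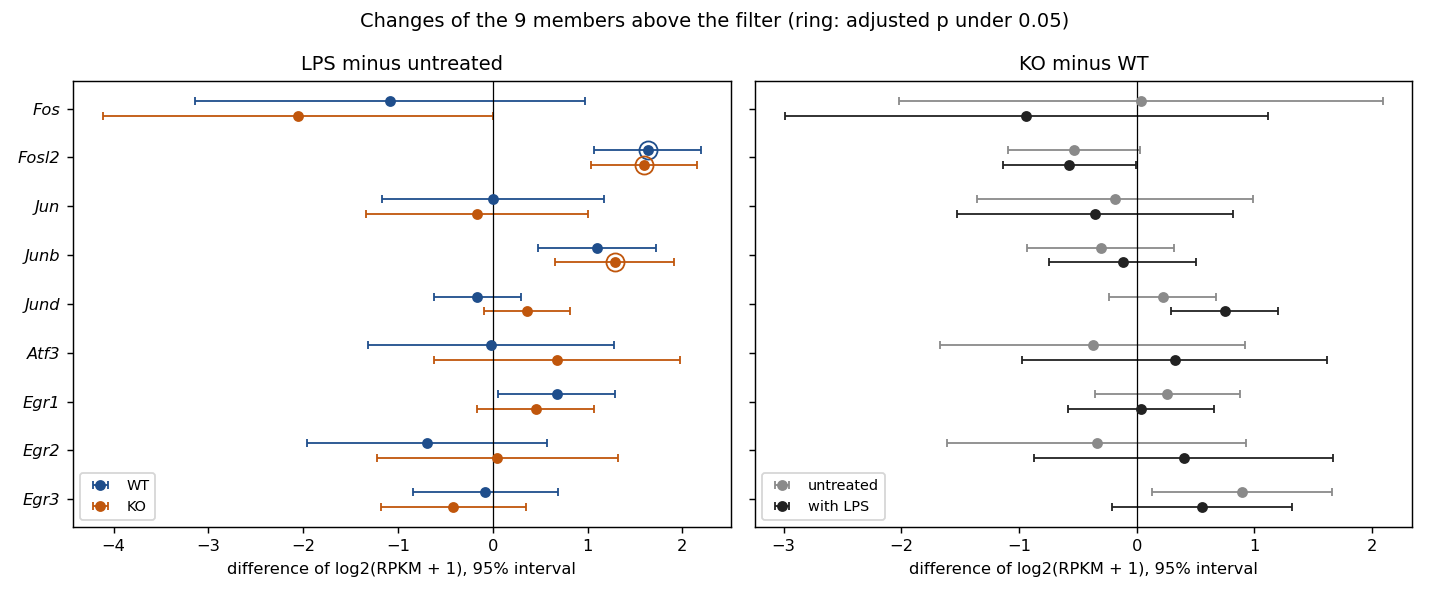
Difference of log2(RPKM + 1) on the horizontal axis with its 95% interval from limma for the 9 tested genes (vertical axis), for LPS minus untreated (left, by genotype) and KO minus WT (right, by treatment); a ring marks an adjusted p under 0.05. Rings sit on Fosl2 in both genotypes and on Junb in KO, and the right panel has none.

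No member passed in any comparison of KO with WT. Without LPS 0.0266% of all loci passed (0.0177% lower and 0.00887% higher in KO), with LPS 0.00887%, and averaged over treatments 0.0355%. Members at an unadjusted p under 0.05 numbered 1 of 9 without LPS (Egr3), 2 with LPS (Fosl2 and Jund) and 3 in the average, against 0.834%, 4.42% and 4.19% of all loci. Fosl2 was lower in KO in 4 of 4 letter pairs, with an averaged log2 difference of -0.55 (SE 0.17, 95% interval -0.95 to -0.15, limma adjusted p = 0.999). Jund was higher in KO in 4 of 4 letter pairs, by 0.49 in the average (SE 0.14, 95% interval 0.16 to 0.81, limma adjusted p = 0.999) and by 0.75 with LPS (limma adjusted p = 0.924). Egr3 was also higher in KO in 4 of 4 letter pairs, by 0.73 in the average (SE 0.23, 95% interval 0.19 to 1.26, limma adjusted p = 0.999). How many of all loci agreed in 4 letter pairs was not counted. In the average 7192 of the 11272 tested loci had higher and 4080 lower fitted values in KO. Jund and Egr3 were the 2 members with all KO libraries above all WT libraries, where 1.01% of all loci lay so and 0.248% the other way. By treatment, untreated KO libraries lay above untreated WT libraries for Jund and Egr3 (17.8% of all loci) and below for Fosl2 (5.86%). With LPS they lay above for Jund, Atf3 and Egr3 (18.7%) and below for Fosl2 and Jun (11.7%). For Fos the averaged difference was -0.45 with an interval of -1.9 to 1.0 log2 units.

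B cell transcripts were also high in most KO libraries. The 8 B cell markers found in the table, such as Cd79a, were all above the filter and none was at 0. Their summed level was 403 to 618 RPKM in the 4 WT libraries, 564 (within the WT range) in KO untreated A, 1700 in KO untreated B, 1380 in KO LPS A and 977 in KO LPS B. All 8 had higher fitted values in KO with and without LPS, with a median difference of 0.92 averaged over treatments, and 0 of 8 passed. The highest Egr3 value stood in the library with the highest B cell sum, KO untreated B. Other marker lists had shifted values in KO as well, with 0 genes called in any of them. All 6 tested T and NK cell markers had higher fitted values in KO (median 0.50 averaged over treatments), and their sum peaked in the same library, KO untreated B, at 55.4 RPKM against 6.13 to 29.98 in the other libraries. The sum of the genes listed for eosinophils also peaked there, at 29.6 RPKM against 5.54 to 14.1. Most of it in that library was Il5ra at 27.4 RPKM, with Epx at 0.097, Prg2 at 0.57 and Ear1 at 0. All 4 tested genes of the mesothelial and fibroblast list, Col1a1, Col1a2, Col3a1 and Dcn, had lower fitted values in KO (median -1.09). The mesothelial genes of that list, such as Msln and Upk3b, were below the filter. Of 11 macrophage markers 8 had lower fitted values in KO (median -0.28). All 4 tested neutrophil markers were lower in KO averaged over treatments (median -0.23). All 8 mast cell markers had lower fitted values in KO with LPS (median -1.09). Without LPS 6 of these 8 had higher ones (median 0.42). The part of RNA from these cells in the KO values of Fosl2, Jund and Egr3 was not tested.

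**Figure D4:**
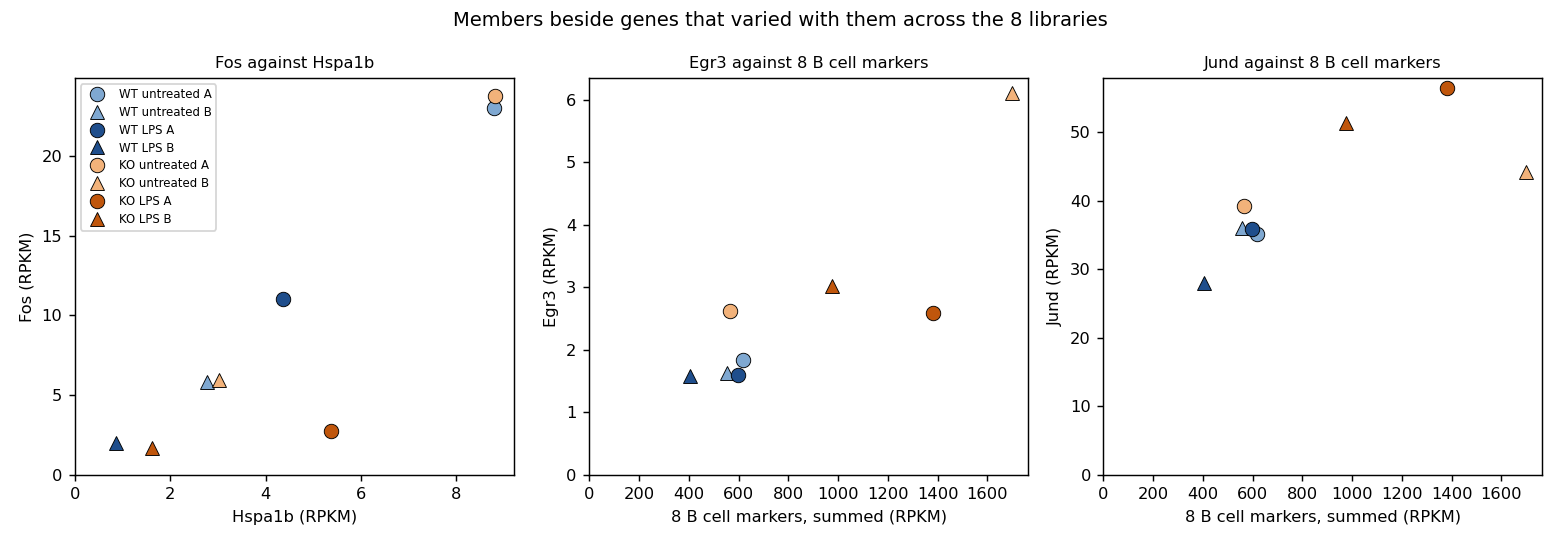
RPKM of Fos against the heat shock gene Hspa1b (left), and of Egr3 (middle) and Jund (right) against the summed RPKM of 8 B cell markers, with 1 point per library, colours for groups, circles for A and triangles for B; all axes are linear and start at 0. The 2 libraries with Fos above 20 RPKM are those with the highest Hspa1b, and the WT libraries sit at B cell sums of 403 to 618 RPKM.

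Fos, Jun and Egr2 followed the letter of the library. Each was lower in B than in A in all 4 groups, where 18.2% of all loci were. The fitted B minus A difference, a comparison chosen after the values were seen, was -1.53 for Fos (SE 0.27, limma adjusted p = 0.0697), -0.87 for Egr2 (limma adjusted p = 0.13), -0.74 for Jun (limma adjusted p = 0.206) and -0.68 for Atf3 (limma adjusted p = 0.346). None of the 9 passed downward, where 0.337% of all loci did. At an unadjusted p under 0.05 there were 3 members, against 15.1% of all loci in either direction. Fosl2 (0.01, limma adjusted p = 0.982) and Junb (-0.01, limma adjusted p = 0.988) had B and A at the same fitted level. Of 34 other immediate early genes 2, Gadd45a and Id3, passed upward in B and 0 downward. Of 23 textbook AP-1 target genes 1, Spp1, passed downward and 0 upward. Among 20 other bZIP factors 0 passed. Macrophage markers had higher fitted values in B for 8 of 11, and 0 passed. Of 12 heat shock genes 10 had lower fitted values in B, where 7186 of the 11272 tested loci did. Among the 12 only the inducible chaperone Hspa1b passed (-1.37, SE 0.15, limma adjusted p = 0.0251), at 4.36 to 8.82 RPKM in A and 0.857 to 3.02 in B. The heat shock sum overlapped between the letters, at 1954 to 2454 RPKM in A and 1814 to 2710 in B. Of 8 mast cell markers 4 passed upward in B, where 0.24% of all loci did: Cpa3, Kit, Tpsab1 and Tpsb2. The sum of the 8 was 6.26 to 112 RPKM in A and 96.9 to 414.5 in B. All 6 T and NK cell markers (median 1.24) and all 4 tested neutrophil markers (median 0.93) had higher fitted values in B, and 0 passed. The T and NK cell sum was 6.13 to 8.85 RPKM in A and 13.6 to 55.4 in B. The part of these in the letter difference of Fos, Jun and Egr2 was not tested.

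Other bZIP factors, which can pair or compete with AP-1, include several that passed with LPS. Of 20 other bZIP factors, all above the filter, 3 rose in WT (median 0.80) and 6 rose in KO (median 0.58), and with the replicate block 7 and 6 rose. Over all loci, 711 passed in WT and 746 in KO in either direction, and 1818 and 1611 with the block. Jdp2, a JUN dimerization partner that represses AP-1, rose by 2.10 in WT (SE 0.23, limma adjusted p = 0.0099) and 1.58 in KO (limma adjusted p = 0.0162). The small MAF protein gene Maff rose by 2.74 in WT (limma adjusted p = 0.0312) and 3.97 in KO (limma adjusted p = 0.0131). Crem, a cAMP-responsive bZIP factor, rose in WT by 2.15 (limma adjusted p = 0.0491).

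Other immediate early genes gave a mixed record at 6 h. Of 34 tested, 4 rose and 0 fell in WT (median 0.72), and 3 rose and 1 fell in KO (median 0.61). With the replicate block 7 rose and 0 fell in WT, and 13 rose and 1 fell in KO. Without the block 3.17% of all loci rose and 3.14% fell in WT, and 3.31% rose and 3.31% fell in KO. With it 1818 loci passed in WT and 1611 in KO in either direction. The stress-induced Ier3 rose by 2.16 in WT (limma adjusted p = 0.0236) and 3.09 in KO (limma adjusted p = 0.00987). Dusp5, a phosphatase of ERK kinases, rose by 1.73 and 1.70 (limma adjusted p = 0.0236 and 0.0244). Trib1 (1.75; in KO 1.36, passing with the replicate block at 0.021) and the ERK phosphatase gene Dusp6 (1.57) rose in WT (limma adjusted p = 0.0267 and 0.025), and the kinase gene Plk2 rose (2.34, limma adjusted p = 0.0478) and the zinc finger gene Klf10 fell (-2.04, limma adjusted p = 0.039) in KO. Egr4 was listed at 0 in all 8 libraries. Averaged over genotypes 20 of 34 rose and 2 fell, where 8.46% of all loci rose and 21.8% fell.

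Kinases and cofactors upstream of these genes were taken as 2 lists. Of 29 tested members of the MAP kinase cascade, 3 rose in WT, namely Rps6ka4 (1.17), Map2k1 (1.03) and Mapkapk3 (0.86), and 1 in KO, Mapkapk2 (1.27), with 0 falling in either (medians -0.07 and -0.21). Averaged over genotypes 7 rose and 3 fell, where 8.46% of all loci rose and 21.8% fell. With the replicate block 4 rose in WT (Map3k5 added), and 1 rose and 1, Mapk3, fell in KO. Of 11 SRF, TCF and EGR cofactors, the ternary complex factor gene Elk3 (1.52) and the EGR corepressor gene Nab1 (1.01) rose in WT. The SRF coactivator gene Mkl1 fell there (-1.07). In KO 0 passed without the replicate block, and 1, Nab2, fell with it. Averaged over genotypes 2 of these cofactors rose and 2 fell, beside the same shares of all loci (8.46% and 21.8%). Of 23 tested textbook AP-1 target genes, 9 rose and 0 fell in WT (median 2.0) and 10 and 0 in KO (median 2.55), where 3.17% and 3.31% of all loci rose. With the replicate block 13 rose in WT and 15 in KO. Led by Il1b (7.76 and 8.88) and Il6 (7.34 and 8.65), they included Ptgs2 (5.82 and 7.74) and Mmp3 (5.69 and 7.32). Many of these targets are also targets of NF-kB, so their rise is not a measure of AP-1. None of the bZIP, immediate early, kinase, cofactor or target genes passed in any KO against WT comparison.

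Across the 8 libraries some other genes had profiles close to those of the members. Likeness was the root mean square difference between profiles of log2(RPKM + 1), each centred on its own mean, for named genes with a mean of at least 5 RPKM; it is a description, and library depth, treatment and letter are shared by all profiles. The nearest to Fosl2 were Rai14 (0.161) and Ero1l (0.213), and the nearest to Junb were Myadm (0.139) and Cdr2 (0.145). Fos was nearest to the folate receptor gene Folr2 (0.286) and the coagulation factor gene F13a1 (0.40), against a standard deviation of 1.27 for Fos itself. Folr2 was at 13.4 and 4.05 RPKM in WT and 16.5 and 4.13 in KO, and at 11.1, 2.09, 2.83 and 1.61 in the LPS libraries (WT A and B, then KO A and B). Jun was nearest to Bcl2l1 (0.149) and Gapdh (0.185), Jund to Mapre2 (0.0877) and Pmaip1 (0.096), and Atf3 to Rps6ka2 (0.259) and Pgk1 (0.266). Egr1 was near Homer1 (0.114), Egr2 nearest to Rassf8 (0.198) and Rcan1 (0.206), and Egr3 to Foxo1 (0.143) and Fam107b (0.163).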

How the data were processed

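The deposited table gives RPKM per locus, as the authors computed them. Per the submitters' processing notes, the tools were bcl2fastq, TopHat2 2.0.14 and Cufflinks 2.2.1 and the genome mm9; no source used here gives annotation or strandedness. The 24192 lines hold 23735 loci, each used once. Loci reaching 1 RPKM in 2 or more libraries were analysed as log2(RPKM + 1), with 1 mean per group over the 8 libraries, in R 4.3.3 with limma 3.58.1 (moderated variances with a trend, two-sided, Benjamini-Hochberg over 11272 loci, called at 0.05). The fit was run on simulated data with independent noise, no letter effect and a spread per locus held at or below the median. Such data are easier than the real ones, so the run checks the code and not the calls. Depth was estimated from steps between low values: with libraries scaled by the commonest ratios, 69.9% of 3451 low loci had whole multiples of 1 step (tolerance 0.1 read plus 0.02 per read), and 748 genes with 1 transcript in GENCODE vM1 set the deepest library at 14.1 M (quartiles 13.0 and 14.8). Positions come from GENCODE vM1. Figures were made with matplotlib 3.10.9.

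Deviations from group means correlated by letter in all 6 pairs of groups (r from 0.20 to 0.41 across loci), so the letter was taken to pair libraries and blocked values stand beside each of the 10 genes whose call they change and, for the lists, as counts. Alternatives were other pseudocounts, filters and scalings, no variance trend, the replicate block, single groups, and each library left out. Named were all 10 genes, up to 4 called genes of each list in each contrast, and the 2 nearest profiles per gene; a few genes that these rules select are not reported here. The members, lists and rules were chosen with earlier results of these data known.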

Additional observations from a re-analysis of the deposited data

How the results depend on the processing

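Of the 63 values (9 genes in 7 contrasts), 5 passed with all libraries and the main settings, and 2 of these, the averaged LPS changes of Fosl2 (1.44 to 1.91) and Junb (1.04 to 1.49), passed under every alternative run. The number of members that rose with LPS in WT, 1, was 2 with the replicate block and 0 to 2 without 1 library. The number that rose in KO, 2, was 3 with median-ratio scaling (Jund added), 1 without a filter, 1 with the KO groups alone and 0 to 2 without 1 library, and the number that fell, 0, was 1 with the replicate block. Averaged over genotypes, the number that rose, 2, was 4 with median-ratio scaling (Jund and Egr1 added), and the number that fell, 0, was 1 with the replicate block and 0 to 1 without 1 library (Fos, without WT LPS A). The replicate block (pairing by letter) changed no other call of a member than Junb in WT and Fos in KO and in the average. Counts of calls over all loci moved far more: 711 in WT was 1818 with the replicate block and 7 to 2244 without 1 library, and 746 in KO was 1611 and 20 to 1554. The sign of 31 of the 63 values changed under some alternative, none of them a value that passed. Within 1 genotype the 95% intervals of the LPS changes of Fos, Jun, Atf3 and Egr2 exceed 1 log2 unit on either side of the estimate, so 2 libraries a group leave smaller changes of these genes undetectable.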
